A study of Mus musculus with 4 samples.

Results

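Leukocyte adhesion molecules of blood vessel endothelium were read in endothelial cells (ECs) of the dura mater and of the brain parenchyma (hereafter, brain). The members were 9 genes taken by symbol, out of 23282 lines in each count table, and all 9 had 1 line each. They were the selectins Selp and Sele, the integrin ligands Icam1, Icam2, Vcam1 and Madcam1, the transmigration molecules Pecam1 and Cd99l2, and Alcam. Both groups were C57BL/6J mice 8 weeks of age with no allele or agent named in the labels, and each group had 2 libraries. After digestion with collagenase, dispase and DNase, cells positive for CD31 and negative for CD45 and TER-119 were sorted, and brain ECs were first enriched with CD31 beads. CD31 is the product of Pecam1, so Pecam1 was part of the gate in both tissues. The comparison asks which transcripts differ between the endothelia of these neighbouring tissues. How many mice went into a library, and whether libraries of a group came from separate mice, is not given in the sources used here, so p-values measure the spread between these libraries, which may be technical.

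Circulating leukocytes leave the blood in steps. Selectins on the vessel wall catch the cells and let them roll, immunoglobulin-like molecules such as ICAM-1 and VCAM-1 then hold them through their integrins, and junction molecules such as PECAM-1 and CD99L2 guide them between ECs. Most of this traffic passes through postcapillary venules. Dura mater vessels lack the blood-brain barrier and are known as a route of immune surveillance, whereas healthy brain vessels keep leukocyte entry low.

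Each library held 13518973 to 16096203 counts, and 9350 to 11803 symbols had at least 1 count. The spread between libraries of a group was large, with a common biological coefficient of variation of 1.387 over the 9347 genes tested. The 10 endothelial markers were each counted in every library and held 0.633% to 0.842% of counts. Markers of brain barrier ECs held 2.26% to 2.58% of counts in brain ECs and 0.314% to 0.318% in dura mater ECs. Tissue handling genes, such as Fos and Egr1, held 0.722% and 0.799% of counts in brain ECs against 2.998% and 3.51% in the dura mater. Of them, 13 of 13 had both dura mater libraries above both brain libraries, against 26.2% of genes tested. In bulk RNA, fewer cells of a type and less RNA per cell cannot be told apart.

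Dura mater ECs had far more Selp and Icam1 than brain ECs. Of the 9 members, 8 passed the filter on low counts and 2 passed edgeR's quasi-likelihood test, both higher in dura mater ECs, Selp and Icam1 (adjusted p under 0.05). Selp had no counts in brain ECs and entered the test through the dura mater libraries alone. A filter of at least 10 counts in every library removed Selp and left Icam1 as the only member called. Vcam1 was higher in both dura mater libraries but missed the adjusted threshold, and Sele, Icam2, Pecam1, Cd99l2 and Alcam overlapped between the tissues. Madcam1 had no count in any library. Over the whole table, 0.610% of the genes tested were called and 0.428% were called higher in dura mater ECs. Both dura mater libraries lay above both brain libraries for 3 members, against 26.2% of genes tested, and no member had the reverse order, while 43.1% of genes tested did not overlap in one order or the other. DESeq2, which called 12.3% of the genes it adjusted, called the same 2 members. With 2 libraries a group, an exact two-sided permutation test of a single gene cannot go below p = 0.333.

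**Figure D1:**
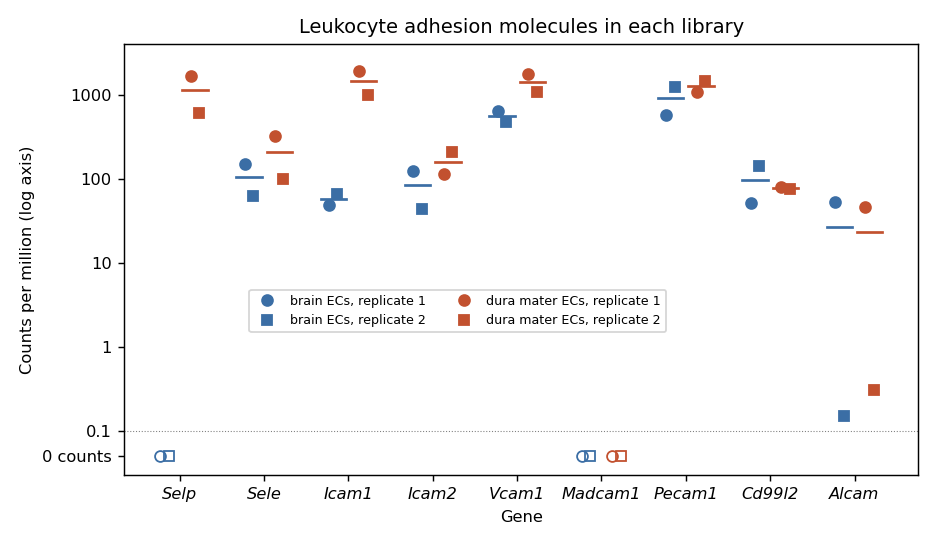
Each point is 1 library, as CPM, counts scaled to library size, on a log axis, with blue for brain ECs and orange for dura mater ECs, and short lines mark the mean of each group of 2. Open symbols under the dotted line stand for 0 counts; Selp is at 0 in brain ECs and at 612 and 1654 CPM in the dura mater ECs, and Alcam splits by replicate number in both tissues.

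Together the members held 0.165% (95% Wilson interval 0.163 to 0.167) and 0.192% (0.190 to 0.195) of counts in the brain libraries. In the dura mater libraries they held 0.688% (0.683 to 0.692) and 0.454% (0.451 to 0.458). These intervals cover counting error only. Without Selp and Icam1, the sum of the other 7 members was 0.160% and 0.186% of counts in brain ECs against 0.336% and 0.293% in the dura mater. The sums of the groups thus stayed apart in these 4 libraries. Most of these counts were of Vcam1 and of Pecam1, which was part of the gate. Of the 7, only Vcam1 had both dura mater libraries above both brain libraries.

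Selectins act first in the cascade. Selp (ENSMUSG00000026580.16, chromosome 1, 164115264 to 164150026, plus strand, GRCm38) encodes P-selectin, which ECs store in Weibel-Palade bodies and which binds PSGL-1 on leukocytes. Its counts were 0 and 0 in brain ECs against 22187 and 9995 in dura mater ECs, and the latter corresponded to 1654 and 612 CPM. Each dura mater library thus stood apart from a complete absence of counts in brain ECs, although the dura mater libraries differed 2.70-fold from each other. At a floor of 3 counts per brain library, the dura mater mean of Selp (1133 ± 737 CPM, SD, n = 2) exceeded the higher brain floor 4998-fold. This lower bound is 12.29 on the log2 scale. The adjusted p in edgeR was 0.0232. The floor covers counting error only, and counts near 0 in 1 library of a tissue were common. In brain ECs, 1282 symbols had at least 64 counts in replicate 1 and at most 7 in replicate 2, and 1290 had the reverse. In dura mater ECs these numbers were 410 and 2800. Selp passed the filter on low counts through the dura mater libraries alone. The call was lost in limma-voom, which called 0.856% of the genes tested (adjusted p 0.0980, from 1.16e-67 to 0.0980 over the alternatives). An antisense gene, Gm16548, shares 9.93% of the exon length of Selp and 118 of its last 500 exonic bases, and it had 0 and 0 counts in brain ECs against 1190 and 134 in the dura mater. Whether counting used strand is not given in the sources used here, so reads of overlapping genes cannot be told apart, and the part of Gm16548 in the Selp counts was not tested.

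Sele (chromosome 1, 164048234 to 164057677, plus strand) encodes E-selectin, which ECs make in response to cytokines and do not store. It was at 149.7 and 62.4 CPM in brain ECs against 319.9 and 98.1 CPM in the dura mater, so the lower dura mater library fell between the brain libraries. The log2 fold change was 0.98 (SE 0.80, 95% interval -0.96 to 2.91), and the adjusted p in edgeR was 0.901. Without dura mater replicate 1 the sign turned (-0.25). Sele transcripts were therefore counted in brain ECs, where Selp was not.

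Icam1 (ENSMUSG00000037405.8, chromosome 9, 21015985 to 21028817, plus strand) encodes ICAM-1, a ligand of the leukocyte integrins LFA-1 and Mac-1. Brain ECs had 48.8 and 66.3 CPM, and dura mater ECs had 1888 and 979.9 CPM. The lower dura mater library was still well above the higher brain library. The means were 57.5 ± 12.4 and 1434 ± 642 CPM (SD, n = 2), a 24.9-fold difference with a log2 fold change of 4.64 (SE 0.50, 95% interval 3.44 to 5.84, adjusted p 0.0248 in edgeR). Icam1 was called under each of the 15 alternatives, with log2 fold changes from 3.95 to 5.01. A prior count of 0.5 is among these alternatives and changes fold changes but not p-values, here and in later counts over the 15. An antisense gene, Gm47079, shares 11.7% of the exon length of Icam1 and 500 of its last 500 exonic bases. Libraries of this kind read the 3′ ends of transcripts, the count tables have no line for Gm47079, and its part in the counts was not tested.

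Icam2 (chromosome 11, 106377656 to 106388075, minus strand) encodes ICAM-2, which resting ECs carry and which also binds LFA-1. Its values were 122.9 and 43.0 CPM in brain ECs against 113 and 206 CPM in the dura mater. One dura mater library lay inside the brain range and the other above it. The log2 fold change was 0.94 (SE 0.80, 95% interval -0.995 to 2.88, adjusted p 0.921 in edgeR). The interval of Icam2 ended below the lower bound of Icam1, although the difference between the genes was not itself tested.

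Vcam1 (chromosome 3, 116109949 to 116129688, minus strand) encodes VCAM-1, which holds leukocytes that carry the integrin subunit of Itga4. It was at 644 and 478 CPM in brain ECs against 1755 and 1059 CPM in the dura mater. Brain ECs thus had Vcam1 counts in both libraries (9335 and 6320), and both dura mater libraries were higher. The means were 561 ± 118 and 1407 ± 492 CPM (SD, n = 2), a 2.51-fold difference with a log2 fold change of 1.33 (SE 0.38, 95% interval 0.40 to 2.26). The unadjusted p in edgeR was 0.0127 and the adjusted p 0.340. It passed under the newer edgeR dispersion estimate (adjusted p 0.0194) and without brain replicate 1 (adjusted p 0.0442 in edgeR), within a range from 0.0194 to 0.783 over the alternatives. Its log2 fold change was 0.78 without dura mater replicate 1.

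Madcam1 (chromosome 10, 79664559 to 79668537, plus strand) encodes MAdCAM-1, the addressin of gut and mucosal venules. It had 0 counts in each of the 4 libraries and was not tested. By counting error alone, a count of 0 allows up to 3 counts, which is 0.184 to 0.227 CPM in these libraries.

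The promoters of the members called, Selp and Icam1, and of Sele and Madcam1, which were not, are shown to set the sequences beside the counts. RefSeq windows of GRCm38.p6, from 250 bases before to 50 bases after the RefSeq start, were at hand for 6 of the 9 members. Those of Selp (chr1:164115014-164115313, plus strand), Sele (chr1:164047984-164048283, plus strand), Icam1 (chr9:21015690-21015989, plus strand) and Madcam1 (chr10:79664309-79664608, plus strand) are printed from 5′ to 3′. Capitals mark matches on either strand to 3 motifs. The first, GGNNNTTCC, is part of the NF-kappaB consensus. The second, TGANTCA, is the AP-1 motif. The TATA box was searched as TATAAA. No matches to different motifs overlapped in the printed windows.
Selp: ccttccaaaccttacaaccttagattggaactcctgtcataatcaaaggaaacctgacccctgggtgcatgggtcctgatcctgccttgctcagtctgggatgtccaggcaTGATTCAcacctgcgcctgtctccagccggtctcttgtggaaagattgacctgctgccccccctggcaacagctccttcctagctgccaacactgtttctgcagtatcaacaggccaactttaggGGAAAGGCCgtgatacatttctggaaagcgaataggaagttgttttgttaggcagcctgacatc
Sele: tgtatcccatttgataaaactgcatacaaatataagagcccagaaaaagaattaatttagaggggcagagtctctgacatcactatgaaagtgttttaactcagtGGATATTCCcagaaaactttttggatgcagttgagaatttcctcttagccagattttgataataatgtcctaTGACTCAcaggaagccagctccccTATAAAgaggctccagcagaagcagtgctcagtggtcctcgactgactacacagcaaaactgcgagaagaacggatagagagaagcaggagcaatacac
Icam1: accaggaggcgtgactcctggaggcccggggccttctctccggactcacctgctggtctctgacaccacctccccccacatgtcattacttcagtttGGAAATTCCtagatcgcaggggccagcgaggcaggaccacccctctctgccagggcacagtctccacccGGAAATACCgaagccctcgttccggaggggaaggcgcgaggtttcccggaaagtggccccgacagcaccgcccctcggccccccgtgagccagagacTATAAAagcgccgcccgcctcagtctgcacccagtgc
Madcam1: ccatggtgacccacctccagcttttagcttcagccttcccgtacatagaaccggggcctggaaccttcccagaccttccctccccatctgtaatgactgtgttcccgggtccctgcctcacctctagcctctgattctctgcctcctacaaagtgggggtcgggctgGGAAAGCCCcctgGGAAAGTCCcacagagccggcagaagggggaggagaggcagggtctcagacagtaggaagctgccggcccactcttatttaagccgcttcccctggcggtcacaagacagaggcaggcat

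The NF-kappaB type motif occurred once in the Selp and in the Sele window and at 2 places each in the Icam1 and Madcam1 windows. Of 32851 RefSeq windows of the same length, 18.5% held this motif. The AP-1 motif occurred once each in the Selp and Sele windows (7.81% of windows hold it), and TATAAA once each in the Sele and Icam1 windows (13.6% hold it). The windows of Cd99l2 and Alcam held no match to the 3 motifs. Madcam1 had no counts, the groups of Sele overlapped, and the part of these motifs in the counts was not tested. A match is a description of the letters and not a binding site.

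Pecam1 (chromosome 11, 106654217 to 106750628, minus strand) encodes CD31, which binds itself across EC junctions and on passing leukocytes. It was at 579 and 1219 CPM in brain ECs against 1076 and 1447 CPM in the dura mater. The groups overlapped, and since CD31 chose the cells, its level is a check of the sort and not a finding. The log2 fold change was 0.49 (SE 0.43, 95% interval -0.56 to 1.54, adjusted p 0.942 in edgeR), and it was -0.0039 without brain replicate 1.

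Cd99l2 (chromosome X, 71420060 to 71492849, minus strand) encodes a junction protein that acts late in transmigration. Brain ECs had 52.0 and 139.7 CPM and dura mater ECs 78.9 and 75.5 CPM. Both dura mater values lay between the brain values. The log2 fold change was -0.31 (SE 0.89, 95% interval -2.46 to 1.84, adjusted p 1.00 in edgeR), and without brain replicate 2 it turned to 0.51.

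Alcam (chromosome 16, 52248996 to 52454074, minus strand) encodes a ligand of CD6 on T cells. Brain ECs held 768 and 2 counts of it, the dura mater libraries 617 and 5. In both tissues replicate 1 was high and replicate 2 near 0, so the means (26.6 ± 37.4 and 23.2 ± 32.3 CPM, SD, n = 2) describe neither library. The log2 fold change of -0.20 (SE 3.03, 95% interval -7.52 to 7.13, adjusted p 1.00 in edgeR) left a difference in either direction not detectable with these libraries. Over the table, 33 symbols had at least 64 counts in both libraries numbered 1 and at most 7 in both numbered 2, and 369 had the reverse pattern. The crossed patterns came to similar numbers, with 32 symbols high in brain replicate 2 and dura mater replicate 1 and 399 high in brain replicate 1 and dura mater replicate 2.

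**Figure D2:**
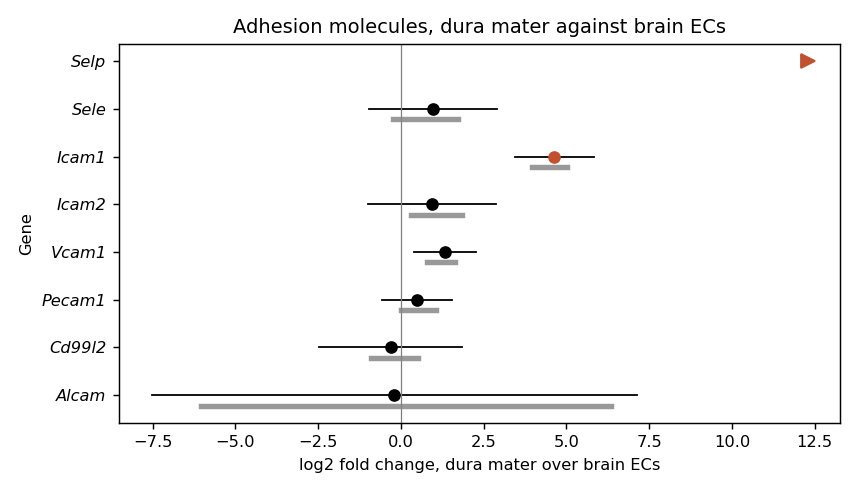
Points are log2 fold changes of dura mater over brain ECs with 95% intervals from edgeR, orange where the adjusted p was under 0.05 (Selp and Icam1), and grey bars below span the alternatives. The triangle of Selp marks its lower bound, 12.29, and the intervals of Sele, Icam2, Pecam1, Cd99l2 and Alcam cross 0.

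Relative to other EC transcripts, Selp, Icam1 and Vcam1 again had both dura mater libraries above both brain libraries. Per 1000 counts of the 10 endothelial markers, Icam1 had 6.35 and 7.54 counts in brain ECs against 296 and 122 in the dura mater. On the same scale Selp had 0 and 0 against 259 and 76.3. Vcam1 had 83.9 and 54.3 against 275 and 132. These markers include Cldn5, a barrier gene that was itself lower in dura mater ECs (log2 fold change -2.52, adjusted p 0.0388 in edgeR). With the other 9 markers alone, a scale chosen after seeing the data, Icam1 had 7.58 and 8.87 against 306 and 126, Selp 0 and 0 against 268 and 78.6, and Vcam1 100.1 and 63.9 against 285 and 136. When libraries were scaled to all 10 markers in the edgeR fit, a choice made after seeing the data, Selp and Icam1 were again the members called, and the log2 fold change of Vcam1 was 1.56.

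Within the dura mater group, replicate 1 was above replicate 2 for the selectins, Icam1 and Vcam1, by 2.70-fold for Selp, 3.26-fold for Sele, 1.93-fold for Icam1 and 1.66-fold for Vcam1. Pecam1 and Icam2 had the opposite order, 1.34-fold and 1.82-fold. The endothelial markers held 0.633% of counts in replicate 1 and 0.814% in replicate 2. Irf1, an interferon and cytokine response gene, was at 5165 and 2435 CPM in these libraries. Of the other cytokine response genes listed, Nfkbia, Ikbkb and Tnfrsf1b also had replicate 1 above replicate 2. Tnfrsf1a (553 and 663 CPM), Rela (114 and 132), Il1r1 (14.3 and 32.6) and Nfkb1 (0.373 and 37.5) had the opposite order. Tnfaip3 was nearly level (14.8 and 14.9 CPM). With n = 2, these orders are a description.

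Markers of other cells that can carry the members were read beside them. Of 14 leukocyte markers, 13 had a line, and they held 0.00512% to 0.00522% of counts in brain ECs and 0.0120% to 0.0184% in dura mater ECs. The defining marker Ptprc, which encodes CD45, had 1 and 3 counts in brain ECs against 4 and 3 in the dura mater, and Cd3e had 0 in each library. The dura mater sum came mostly from Cd14 (1860 and 1375 counts against 2 and 3) and Cd68 (550 and 441 against 4 and 3). The brain sum came mostly from C1qa (436 and 1 counts against 2 and 25) and C1qb (289 and 4 against 2 and 0) in replicate 1 and from Csf1r (4 and 646 against 28 and 9) in replicate 2. These 5 were named after their values were seen. Their part in the result was not tested.

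Platelets carry P-selectin, so their markers were read too. Of 8 platelet markers, Gp9, Gp1ba and Treml1 were at 0 in each library, and Pf4 had 10 and 5 counts in brain ECs against 3 and 76 in the dura mater. The list held 0.0131% and 6.52e-05% of counts in brain ECs against 0.0120% and 0.00338% in the dura mater. Itga2b had 395 and 0 counts in brain ECs against 487 and 0 in the dura mater, high in replicate 1 of both tissues as Alcam was. Gp1bb had 1210 and 4 counts in brain ECs against 1133 and 278 in the dura mater, and Ppbp had 275 and 0 against 0 and 190. The part of platelets in the Selp counts was not tested.

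Lymphatic ECs and venular ECs pass the same gate. The 7 lymphatic markers (8 lines, since Ccl21a has 2) held 0.0123% and 0.0138% of counts in brain ECs against 0.0429% and 0.0654% in the dura mater. Nearly all of the brain counts were of Flt4 (1777 and 1905 against 2384 and 4018). Prox1, their defining transcription factor, had 0 and 0 counts against 492 and 125. Lyve1 (911 and 1776), Mmrn1 (1132 and 690) and 1 Ccl21a line (883 and 3378) also had counts in the dura mater only. The other Ccl21a line had 0 in each library, Pdpn had 3 and 7 against 3 and 45, and Reln 1 and 0 against 0 and 502. Venular markers had 8 of 8 genes with both dura mater libraries on top, against 26.2% of genes tested. That list itself holds Selp, Icam1 and Vcam1, and its other genes were Vwf, Ackr1, Nr2f2, Ephb4 and Lrg1. Erythroid genes held 1.80% and 2.46% of counts in brain ECs against 0.148% and 0.0773% in the dura mater, although TER-119 was a negative gate. Mural cell markers overlapped between the tissues (0.0622% and 0.103% against 0.112% and 0.0673%), as did neural and glial ones (0.0103% and 4.34e-05% against 0.0223% and 0.00200%). Fibroblast markers held 0.217% to 0.254% of counts in brain ECs and 1.12% to 1.14% in dura mater ECs, nearly all of it Mgp (0.254% and 0.213% against 1.09% and 1.11%). The other 7 held 7.40e-04% and 0.00488% against 0.0367% and 0.0359%, and the defining marker Pdgfra had at most 1 count in any library. The part of lymphatic ECs, venular ECs, erythroid cells, fibroblasts and tissue handling in the values of Selp, Icam1 and Vcam1 was not tested.

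**Figure D3:**
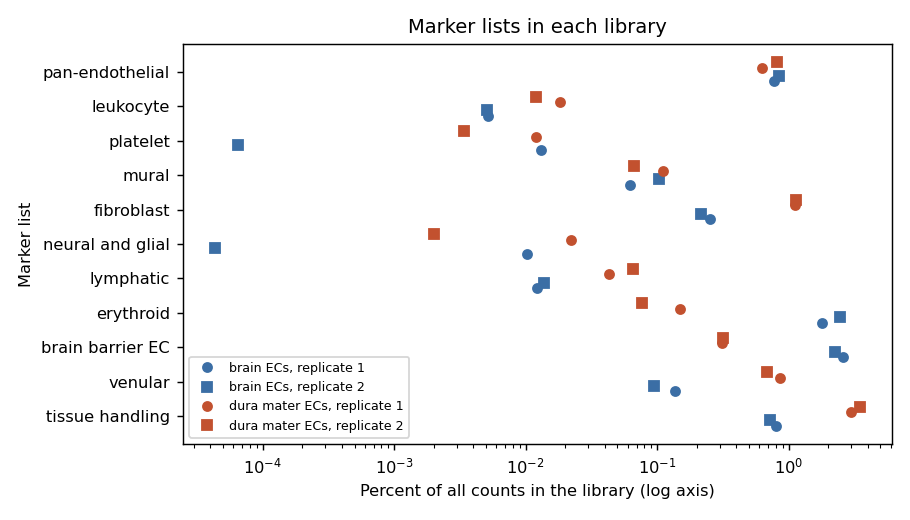
Each point is the share of a library's counts held by a marker list, in percent on a log axis, for brain ECs in blue and dura mater ECs in orange. Pan-endothelial lists lie together at 0.633% to 0.842%, whereas the tissue handling, venular, fibroblast, lymphatic and leukocyte lists are higher in both dura mater libraries.

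Of 47 other genes of the adhesion pathway listed, 46 had a line, 32 were tested and 0 passed in edgeR at an adjusted p under 0.05, while 9 had an unadjusted p under 0.05, as did 936 of the 9347 genes of the table. DESeq2, fitted with no filter on low counts to 43 of the listed genes, called 9, against 12.3% of all genes it adjusted. The limma-voom fit called 2 of the 32, against 0.856% of the genes tested. The median log2 fold change was 1.07 over these genes, 0.96 over the 8 members tested and -0.0067 over all genes tested, and 24 of the 32 had a positive value against 4657 of 9347 in the table. Apart from Aoc3, the pathway genes named were chosen after their values were seen.

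Among junction and transmigration genes, 8 of 10 tested had a positive log2 fold change (median 1.07). Esam, a tight junction adhesion molecule of ECs, had 3343 and 4080 CPM in brain ECs against 1845 and 2329 CPM in the dura mater, the reverse order of Icam1 (adjusted p 0.432 in edgeR, called under 2 of the 15 alternatives). Aoc3, which encodes vascular adhesion protein VAP-1, had no counts in brain ECs against 415 and 116 in the dura mater (adjusted p 0.466 in edgeR). At the floor of 3 counts, its dura mater mean was at least 83.9-fold higher. Cdh5, which encodes VE-cadherin, had a log2 fold change of 0.54 (SE 0.38, adjusted p 0.799 in edgeR). Of the selectin ligand scaffolds, 4 of 6 were tested, with a median of -0.15, and Cd34 had a log2 fold change of -0.07 (SE 0.28).

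Genes of the bodies that store P-selectin had positive log2 fold changes in 3 of 3 tested (median 2.58), and none passed in edgeR, with 1 at an unadjusted p under 0.05, while DESeq2 and limma-voom both called Vwf. Vwf, the cargo around which Weibel-Palade bodies form, was at 306 and 177 CPM in brain ECs against 942 and 1278 CPM in the dura mater. Its log2 fold change was 2.20 (SE 0.42, adjusted p 0.127 in edgeR), and it was called under 8 of the 15 alternatives (adjusted p 8.47e-05 to 0.230). Brain ECs had Vwf counts (4440 and 2340) and no Selp counts. Cd63, a membrane protein of the same bodies, had 43 and 736 counts against 3662 and 3425 (adjusted p 0.466 in edgeR) and was called under 3 of the 15 alternatives.

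The 6 membrane anchors, which link ICAM-1 and VCAM-1 to actin or gather them in the membrane, had positive log2 fold changes (median 1.49), and none passed in edgeR, with 3 at an unadjusted p under 0.05, while DESeq2 called Cav1, Cd9 and Msn. Cd9, a tetraspanin, was at 18.1 and 14.97 CPM in brain ECs against 203 and 357 CPM in the dura mater (log2 fold change 4.07, SE 0.68, adjusted p 0.0829 in edgeR), and it was called under 7 of the 15 alternatives (adjusted p 3.21e-06 to 0.519). Msn, which encodes moesin, had a log2 fold change of 1.67 (SE 0.41, adjusted p 0.251 in edgeR) and was called under 2 of the 15 alternatives.

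Genes of the cytokine response that is known to induce Sele, Icam1 and Vcam1 had 6 of 8 positive values (median 1.16). Irf1 was at 468 and 300.4 CPM in brain ECs against 5165 and 2435 CPM in the dura mater (log2 fold change 3.30, SE 0.48, adjusted p 0.0540 in edgeR). It was called under 11 of the 15 alternatives, DESeq2, limma-voom and each fit without 1 library among them (adjusted p 4.43e-22 to 0.0645). Tnfrsf1a, the main receptor for TNF, had a log2 fold change of 1.96 (SE 0.46, adjusted p 0.233 in edgeR) and was called under 6 of the 15 alternatives. Il1r1, the receptor for interleukin-1, had a log2 fold change of -2.36 (SE 1.04, adjusted p 0.470 in edgeR), with 1596 and 1757 counts in brain ECs against 192 and 533 in the dura mater. Nfkbia, the NF-kappaB inhibitor, had a log2 fold change of 0.54 (SE 0.39, adjusted p 0.818 in edgeR).

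Of 10 leukocyte counter-receptors, 1 passed the filter on low counts, Itga4, with 1201 and 222 counts in brain ECs against 2 and 130 in the dura mater (adjusted p 0.837 in edgeR). Selplg, which encodes PSGL-1, and Itgb2, the shared subunit of LFA-1 and Mac-1, had at most 2 counts in any library, and Itgb7 and Cd6 had 0. Itgam had 1 and 2 counts in brain ECs against 87 and 0 in the dura mater.

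**Figure D4:**
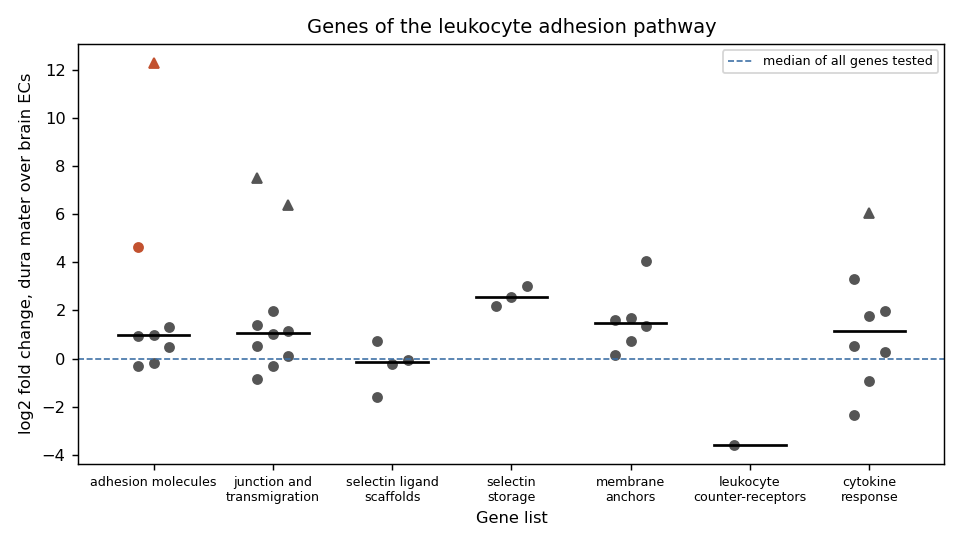
Each point is a tested gene, with its log2 fold change of dura mater over brain ECs by list, orange where called, triangles at the lower bound for genes at or under 3 counts in each brain library, and black lines at the medians. Selp and Icam1 are the 2 called points, and the dashed line is the median of all genes tested, -0.0067.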

How the data were processed

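Sorted dura mater and brain ECs, 2 libraries each, were read with a 3′-end kit (QuantSeq) on a NextSeq 500. The authors deposited raw counts per gene symbol. Methods name TopHat and cufflinks, the submitters' processing notes name Bowtie2, edgeR and mm10 with no role, and the counting step, annotation, strand and molecular identifiers are not given in the sources used here. Groups came from the sample titles. The main test was edgeR 4.0.16 (R 4.3.3), quasi-likelihood, fitted to tissue alone after filterByExpr and TMM scaling, with p-values adjusted over 9347 genes by Benjamini-Hochberg. It stands in for cufflinks, which needs alignments. Log2 fold changes used a prior count of 2, the SE is the log2 fold change over the root of F, and CPM used TMM-adjusted sizes of the filtered libraries. DESeq2 1.42.0 and limma 3.58.1 (voom) were alternatives, and the scripts were tested on simulated data. Positions and overlaps are from GENCODE M21 (GRCm38), which may differ from the annotation behind the counts. The rule for named genes took all 9 members, and other pathway genes if called or at 0 in both libraries of a group and at 100 or more in both of the other, which left Aoc3. Further pathway and marker genes were named after their values were seen. Members and lists were chosen with earlier results of these data known. Nectin2 was matched by its older symbol, Pvrl2. A gene of the lists is not reported here.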

Additional observations from a re-analysis of the deposited data

How the results depend on the processing

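Against 57 genes called (40 higher, 17 lower), 2 members and 0 other pathway genes, DESeq2 called 1259 genes and 9 pathway genes, the newer edgeR dispersion estimate 305 and 6, no filter on low counts 326 and 5, at least 10 counts in every library 141 and 4, limma-voom 80 and 2, and upper-quartile scaling 70 and 1. Members numbered 1 in limma-voom, which lost Selp, and 1 under the filter of 10 counts, which removed Selp and Alcam. With the replicate block edgeR called 224 genes and 4 pathway genes (Irf1, Tnfrsf1a, Cd9 and Vwf), with the same 2 members. Libraries with the same number did not deviate together (correlation across genes -0.0153). With 2 pairs of libraries, this value cannot tell whether they share mice or a batch. Leaving out 1 library, with the lone library assumed to vary like the other group, gave 80 to 740 genes (740 without brain replicate 1, 701 without brain replicate 2, 97 without dura mater replicate 2 and 80 without dura mater replicate 1), 2 to 3 members and 1 to 8 pathway genes. Scaling to endothelial markers gave 58 higher and 14 lower genes, limma-voom 40 and 40, the filter of 10 counts 75 and 66, the newer dispersion estimate 180 and 125, no filter 195 and 131, the replicate block 133 and 91, and the fits without dura mater replicate 1 or 2 gave 43 and 37 or 43 and 54. Endothelial marker scaling moved the median of all genes to 0.19 and upper-quartile scaling to 0.13, from -0.0067. Without brain replicate 1 or 2 that median was 1.03 and 0.95. Signs reversed for Alcam in limma-voom (0.26), with the replicate block (0.19) and with endothelial marker scaling (0.0669), and by library left out from -6.02 to 6.33. They also reversed for Sele (-0.25 without dura mater replicate 1, up to 1.71 without brain replicate 1), Cd99l2 (0.51 without brain replicate 2, down to -0.90 without brain replicate 1) and Pecam1 (-0.0039 without brain replicate 1, up to 1.05 without brain replicate 2). These causes were not tested. Icam1 was called under each alternative that was run, and the log2 fold changes of Selp, Icam2 and Vcam1 kept their sign. With 2 libraries per group, the intervals of Sele and Icam2 include both 0 and a rise of over 2 on the log2 scale.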
